A study of Sus scrofa with 31 samples.

Results

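SELENOP (ENSSSCG00000021208), RAP1B (ENSSSCG00000032595) and ARPC5 (ENSSSCG00000015560) are 3 of the 31907 genes counted in pig brain and lung samples, and they were chosen by their measured levels in microglia of 3 brain regions, each being lower in the cerebellum than in the frontal cortex. Because the regional levels chose them, the regional differences below are a description with no test, while the comparisons with alveolar macrophages and with whole tissue were not used to choose the genes and are tested. All 3 genes passed the filter on low counts, which kept 11633 genes.

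The question the study addressed was how microglia of the young pig compare with another macrophage, with the tissue they live in, and between brain regions. RNA-seq was made of 31 samples from 15 pigs, all wild-type and untreated male piglets in the fourth week of life, 1 from each litter of Large White × Landrace sows crossed with Danish Duroc. There were 8 samples each of microglia sorted from the cerebellum, the frontal cortex and the hippocampus as CD11b-high CD45-low cells, 3 samples of alveolar macrophages sorted from lung lavage as F4/80-positive CD163-low cells, and 4 samples of whole hippocampal tissue. All piglets had been sedated and anaesthetised for imaging before death, and litters were born either in standard housing or in pens with more freedom of behaviour, which the sample labels do not tell apart. Each microglia sample of a region came from a different pig, but 9 pigs gave more than 1 sample, 7 of them microglia of more than 1 region. These counts rest on the pig numbers in the labels, and the study's methods give higher numbers of pigs and of pigs with several regions. The sorted cells were lysed in TRIzol and their RNA was extracted by magnetic beads, whereas the tissue was kept in RNAlater and extracted with a column kit, so extraction and sample type cannot be told apart.

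Selenoprotein P, the product of SELENOP, is a secreted protein that carries selenium in plasma and brain. It holds many selenocysteines, amino acids that the ribosome inserts at UGA codons that would otherwise end translation, and cells take it up through receptors such as LRP8. RAP1B is a small GTPase of the RAS family that, together with its close relative RAP1A, switches integrins to their adhesive state once exchange factors have loaded it with GTP. ARPC5 is a subunit of the Arp2/3 complex, which starts new branches on actin filaments and so drives the protrusions that microglia and macrophages use to survey and engulf; ARPC5L is the alternative form of that subunit.

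On Sscrofa11.1, the build to which the authors aligned, RefSeq places SELENOP on the minus strand at chr16:27537885-27547863 with 5 exons. Its coding sequence has 390 codons before a final TAA, and 14 of them are in-frame TGA codons, each annotated as selenocysteine. The first lies at codon 59, far from the others, and the printed stretch near the end holds 11 of the 14. Both stretches are shown, 5′ to 3′ on the coding strand, because they hold TGA codons annotated as selenocysteine. Capitals mark the TGA codons. The first stretch spans chr16:27544700-27544750 and the second chr16:27538749-27538997, each within an exon.
SELENOP first TGA: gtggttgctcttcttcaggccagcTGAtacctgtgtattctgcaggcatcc
SELENOP TGA-rich end: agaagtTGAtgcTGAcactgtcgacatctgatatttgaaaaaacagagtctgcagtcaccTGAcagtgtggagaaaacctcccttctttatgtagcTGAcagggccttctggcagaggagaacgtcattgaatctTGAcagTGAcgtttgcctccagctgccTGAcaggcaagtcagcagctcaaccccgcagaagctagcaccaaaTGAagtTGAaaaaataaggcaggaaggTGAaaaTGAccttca

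RAP1B lies on the plus strand at chr5:32910181-32961972 and has 8 exons, and RAP1A lies on the minus strand at chr4:108675537-108750952. Their coding sequences are the same length, 555 bases, and 95 of those bases differ, which is an identity of 82.9%. The longest run of identical bases was 20, shorter than the reads of 50 bases, while only 9 of the 184 residues they encode differ. One coding stretch of 144 bases is printed from each gene, since the counts of RAP1B rest on telling the pair apart; capitals mark the 25 bases that differ, in the exon at chr5:32956745-32956888 for RAP1B and at chr4:108685997-108686140 for RAP1A.
RAP1B: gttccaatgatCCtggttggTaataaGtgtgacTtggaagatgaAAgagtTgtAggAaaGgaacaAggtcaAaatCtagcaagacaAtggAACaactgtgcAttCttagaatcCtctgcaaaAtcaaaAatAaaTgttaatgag
RAP1A: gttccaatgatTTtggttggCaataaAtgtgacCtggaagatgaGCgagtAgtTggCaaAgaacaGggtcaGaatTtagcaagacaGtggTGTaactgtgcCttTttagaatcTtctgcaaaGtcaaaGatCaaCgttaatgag

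The RAP1B transcript matched 5 other places in the genome over at least 50 bases, and RAP1A was not among them. The longest match, at chr7:76697886-76700720, covered 85.3% of the transcript at 90.3% identity. It overlaps an annotated pseudogene and also LOC102158035, which is not annotated as one. The next, on chr1, covered 50.0% at 89.4% identity and overlaps LOC110261626, also not annotated as a pseudogene. The RAP1B counts therefore carry an uncertainty about reads shared with such copies. ARPC5 lies on the minus strand at chr9:124839062-124847906 with 4 exons, and its coding sequence matched that of ARPC5L in 69.7% of aligned positions. No other place in the genome matched SELENOP or ARPC5 over that length, but the ARPC5 transcript searched holds its 456 coding bases alone. A match had to start from a run of identical bases longer than the 20 shared by the coding sequences of RAP1B and RAP1A. Less similar copies could therefore be missed, as RAP1A was.

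Library totals ranged from 18438494 to 43477403 counts, and the median was 23930658 for the cerebellum, 29274854 for the frontal cortex and 27360094 for the hippocampus. The 3 genes were well covered in every library, with 866 to 8786 counts for SELENOP, 1304 to 7469 for RAP1B and 2294 to 17095 for ARPC5. Levels below are in CPM, a gene's counts relative to the total of its library after that total was scaled by TMM, the trimmed mean of M values. The 9 microglia markers, P2RY12, TMEM119 and CX3CR1 among them, summed to between 3933 and 8090 CPM in the 24 microglia samples and to between 223 and 391 in the macrophage and tissue samples. The oligodendrocyte markers reached 1855 and 1229 CPM in the frontal cortex samples of pigs 12599 and 12891, and the cerebellar granule cell markers reached 149 CPM in 1 cerebellar sample, so results are also given without such samples where they matter.

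SELENOP was lowest in alveolar macrophages and highest in frontal cortex microglia. The 8 cerebellar samples ran from 101 to 151 CPM with a median of 123, and the mean was 127 ± 17.7 (SD, n = 8). The 8 frontal cortex samples ran from 179 to 251 CPM with a median of 204, a mean of 209 ± 29.2 (SD, n = 8), and every one of them lay above every cerebellar sample. The hippocampal samples were between, from 125 to 198 CPM with a median of 153 and a mean of 154 ± 24.8 (SD, n = 8). They overlapped both other regions. The 3 macrophage samples had 25.9, 22.8 and 33.1 CPM, and the 4 tissue samples 159, 230, 142 and 138 CPM. Macrophages thus stood well below all other samples, and the tissue samples spread over most of the range of the microglia. In the order of their means, the groups were macrophages, cerebellum, hippocampus, tissue and frontal cortex. The ranges of macrophages and cerebellum did not overlap, and those of all later neighbours did.

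RAP1B had the opposite order of macrophages and tissue. The cerebellar samples ran from 55.4 to 76.1 CPM with a median of 69.7 and a mean of 68.7 ± 7.12 (SD, n = 8). The frontal cortex samples ran from 75.5 to 122 CPM with a median of 99.2 and a mean of 98.5 ± 17.9 (SD, n = 8), so that the ranges of these regions touched over less than 1 CPM. The hippocampal samples ran from 69.2 to 94.1 CPM, with a median of 78.7 and a mean of 80.8 ± 10.4 (SD, n = 8). Microglia of the 3 regions therefore formed a graded series with overlap at each step. The macrophage samples had 132, 136 and 159 CPM. The 4 tissue samples had between 40 and 53.8 CPM. Macrophages lay above all microglia samples and tissue lay below all of them.

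By the means, ARPC5 followed the same order of groups as RAP1B. By the medians, hippocampal microglia stood above frontal cortex microglia. The cerebellar samples ran from 91.9 to 128 CPM with a median of 113 and a mean of 114 ± 11.5 (SD, n = 8). The frontal cortex samples ran from 138 to 213 CPM with a median of 162 and a mean of 172 ± 27.9 (SD, n = 8), all above the cerebellar ones. The hippocampal samples ran from 113 to 202 CPM with a median of 174 and a mean of 163 ± 32.7 (SD, n = 8). Hippocampus and frontal cortex thus overlapped almost completely, and the lowest hippocampal samples reached down into the cerebellar range. The macrophage samples had 270, 314 and 365 CPM, above all others. The tissue samples ran from 74.6 to 107 CPM, and the highest of them lay within the cerebellar range.

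**Figure D1:**
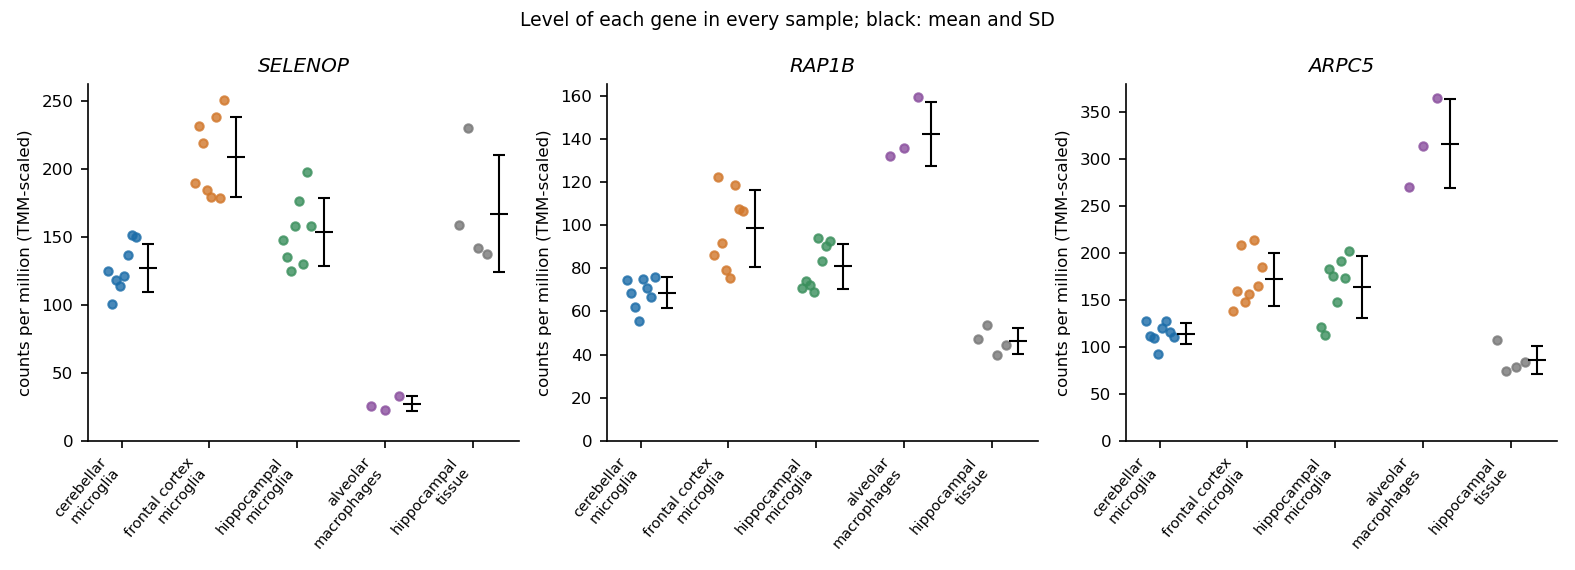
Level in CPM (TMM-scaled, linear axis from 0) of SELENOP, RAP1B and ARPC5 in each of the 31 samples, 1 point a sample, with the mean and SD of each group in black. All cerebellar samples lie below all frontal cortex samples for SELENOP and ARPC5, the ranges overlap narrowly for RAP1B (up to 76.1 and from 75.5), and alveolar macrophages are lowest for SELENOP (22.8 to 33.1) and highest for ARPC5 (270 to 365).

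The fitted differences between regions show how large the pattern was that chose the genes. Against frontal cortex microglia, the level in cerebellar microglia was lower by 1.64-fold for SELENOP (log2 fold change -0.72, SE 0.12), by 1.43-fold for RAP1B (-0.52, SE 0.10) and by 1.51-fold for ARPC5 (-0.59, SE 0.12). Over all 11633 genes, 0.971% were called lower and 0.894% higher in this comparison at an adjusted p under 0.01, and 0.37% had every cerebellar sample below every frontal cortex sample, as SELENOP and ARPC5 did. Against hippocampal microglia the fitted differences were -0.27 (SE 0.12) for SELENOP, -0.23 (SE 0.10) for RAP1B and -0.52 (SE 0.12) for ARPC5. Between frontal cortex and hippocampus, the fitted difference was 0.45 (SE 0.12) for SELENOP, 0.29 (SE 0.10) for RAP1B and 0.08 (SE 0.12) for ARPC5, and the ranges overlapped for each.

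The pigs that gave several regions allowed the same differences to be read within an animal. In the 6 pigs with both regions, SELENOP was lower in the cerebellum than in the frontal cortex in 6 of 6, by a mean log2 difference of -0.66 ± 0.23 (SD, n = 6). The difference was smallest in pig 12891, with 151 against 179 CPM, and largest in pig 12599, with 101 against 189 CPM. RAP1B was lower in 6 of 6 as well (mean log2 difference -0.51 ± 0.17, SD, n = 6), from -0.33 in pig 12599 to -0.74 in pig 12847. ARPC5 was lower in 6 of 6 (mean -0.59 ± 0.19, SD, n = 6), from -0.31 in pig 12599 to -0.76 in pig 12758. Among all genes tested, 4.11% were lower in the cerebellum in all 6 pigs. The order of the pigs was not shared: pig 12599 had the widest gap for SELENOP and the narrowest for RAP1B and ARPC5.

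Against the hippocampus of the same pig, each gene was lower in the cerebellum in 4 of 4 pigs, which was also so for 12.9% of all genes. The mean log2 differences were -0.41 ± 0.15 for SELENOP, -0.32 ± 0.09 for RAP1B and -0.30 ± 0.12 for ARPC5 (SD, n = 4). For ARPC5 this is smaller than the difference fitted over all samples, and with the pig as a block in the fit it came to -0.33 against -0.52. The 4 hippocampal samples from pigs without a cerebellar sample all had an ARPC5 level above those of the 4 pigs with both. In the 3 pigs with all regions, the frontal cortex was above the hippocampus for each gene in 3 of 3, as for 13.3% of all genes, by a mean of 0.33 ± 0.07 for SELENOP, 0.19 ± 0.19 for RAP1B and 0.35 ± 0.10 for ARPC5 (SD, n = 3). With the pig as a block, the fitted difference of ARPC5 between frontal cortex and hippocampus was 0.28 instead of 0.08.

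**Figure D2:**
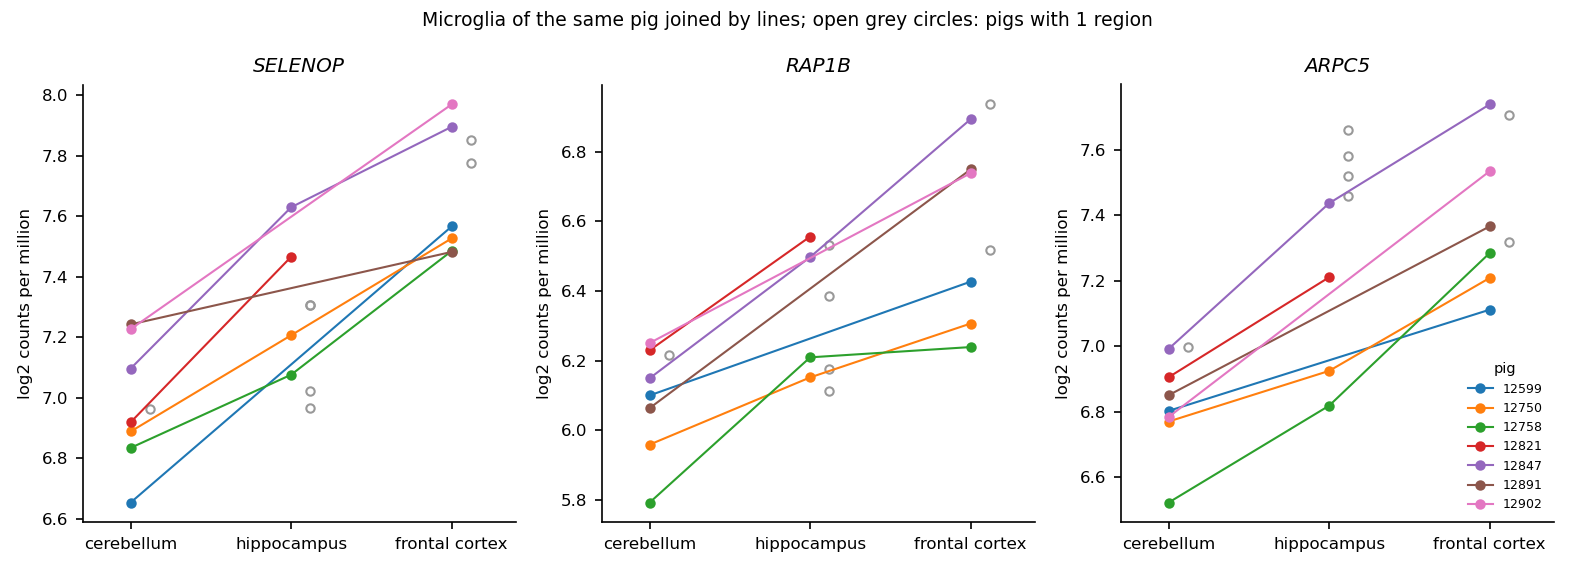
Level of each gene in log2 CPM (vertical axis) in microglia of the cerebellum, hippocampus and frontal cortex (horizontal axis), with filled points of the same pig joined by a line and open grey circles for pigs with microglia of 1 region; a line that passes the hippocampus with no point there belongs to a pig without a hippocampal sample. Every line that joins the cerebellum and the frontal cortex rises between them, in 6 of 6 pigs for each gene. The line of pig 12821, which had no frontal cortex sample, ends at the hippocampus.

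Other cell markers also differed between the regional samples, and their part in these differences was not tested. The 9 matched early response genes that cell isolation can induce, such as FOS, JUN and DUSP1, had sums of 502 to 1027 CPM in microglia of the cerebellum, 214 to 628 CPM in those of the frontal cortex and 334 to 576 CPM in those of the hippocampus. Among the regions the median sum was highest in the cerebellum, where the 3 genes were lowest. The sums were 735 to 820 CPM in macrophages, where SELENOP was lowest and RAP1B and ARPC5 were highest. In tissue, where RAP1B and ARPC5 had their lowest means, the sums were 166 to 247 CPM. The 6 brain border macrophage markers had sums of 49.6 to 219 CPM in the cerebellar samples, 147 to 420 CPM in the frontal cortex samples and 116 to 196 CPM in the hippocampal samples. Nearly all of that sum was the scavenger receptor STAB1, at 48.1 to 205 CPM in the cerebellum and 143 to 388 CPM in the frontal cortex. CD163 was above 0 in all microglia samples, with means of 2.98 CPM in the cerebellum and 7.02 CPM in the frontal cortex, where 1 sample reached 22.0 CPM. MRC1 reached no more than 8.25 CPM, LYVE1 was at 0 in 6 of 8 cerebellar and 5 of 8 frontal cortex samples, and CD209 was at 0 in all microglia samples, but also in all macrophage samples and 3 of 4 tissue samples. The 6 granule cell markers ran from 9.09 to 149 CPM in the cerebellar samples and reached at most 2.76 CPM in hippocampal ones. They reached at most 3.38 CPM in 7 frontal cortex samples and reached 34.8 CPM in that of pig 12891, against 12.03 CPM in the same pig's cerebellar sample. This pig had the smallest SELENOP difference between cerebellum and frontal cortex, at -0.24 in log2. Its differences were -0.69 for RAP1B and -0.52 for ARPC5, beside means of -0.51 and -0.59 over the 6 pigs. Without the cerebellar samples of pigs 12583 and 12902, or without the frontal cortex samples of pigs 12599 and 12891, each gene remained lower in the cerebellum than in the frontal cortex, and over every alternative the fitted difference lay between -0.81 and -0.68 for SELENOP, -0.62 and -0.48 for RAP1B and -0.67 and -0.55 for ARPC5. In bulk RNA of sorted cells or tissue, fewer cells of a type and less RNA per cell cannot be told apart.

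**Figure D3:**
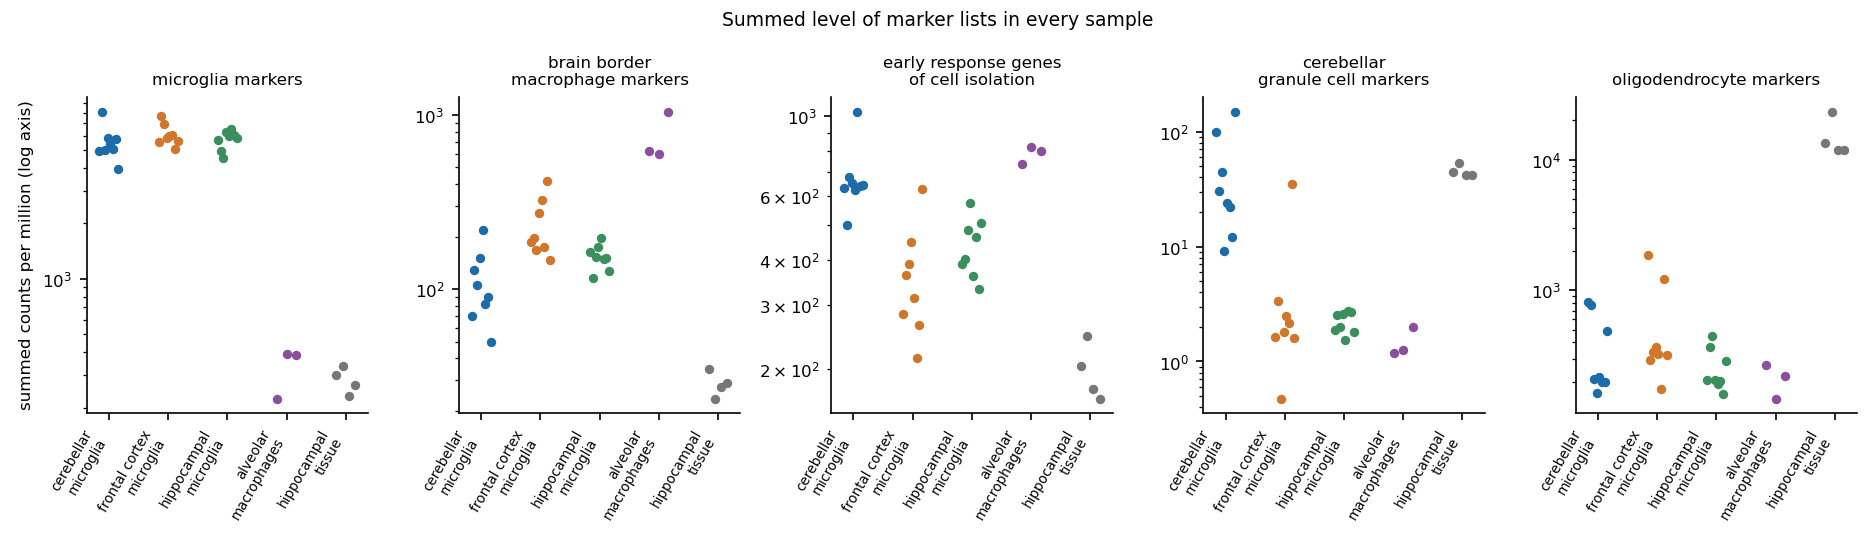
Summed CPM (log axis) of 5 marker lists in each sample, 1 point a sample, by group. Microglia markers separate the 24 microglia samples from the others. Early response genes are mostly higher in cerebellar (502 to 1027) than in frontal cortex microglia (214 to 628). Border macrophage markers are mostly lower in cerebellar (49.6 to 219) than in frontal cortex microglia (147 to 420).

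The comparison with alveolar macrophages asked which genes distinguish microglia from a macrophage of another tissue, and it parted SELENOP from the other genes. SELENOP was 5.87-fold higher in the microglia of the 3 regions than in macrophages (log2 fold change 2.55, SE 0.18, adjusted p = 5.72e-13 by edgeR's quasi-likelihood test), with all 24 microglia samples above all 3 macrophage samples, as for 14.3% of all genes. It was the only gene of the selenium list called at an adjusted p under 0.01 and a fold over 3, a call made higher for 12.2% and lower for 10.1% of all genes. RAP1B was lower, by 1.74-fold (-0.80, SE 0.12, adjusted p = 9.79e-07), and ARPC5 was 2.14-fold lower (-1.10, SE 0.13, adjusted p = 2.07e-08). Both passed the adjusted p but not the fold of 3, and for both all microglia samples lay below all macrophage samples, as for 17.4% of all genes. An adjusted p under 0.01 was reached by 24% of genes in that direction and 23.5% in the other. With the pig as a block, the RAP1B difference was -0.52 (adjusted p = 0.00421, against a range of 6.02e-11 to 0.00421 over all alternatives) and the calls were the same. The 6 alveolar macrophage markers summed to 344 to 587 CPM in the macrophage samples, against at most 56.8 CPM in microglia. Of these markers, MARCO and FABP4 were at 0 in all 3 macrophage samples and the others above 0. The macrophage samples also carried 529 to 1089 CPM of 4 T cell markers, 293 to 432 CPM of 4 B cell markers and 382 to 833 CPM of 4 granulocyte markers. Microglia had at most 71.8, 165 and 38.4 CPM of these. The T cell sum exceeded the alveolar macrophage sum in pigs 12821 (790 against 344) and 12829 (1089 against 360), but not in pig 12984 (529 against 587). The part of T cells, B cells and granulocytes in the differences was not tested.

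The comparison of hippocampal microglia with the hippocampal tissue asked which genes the sort enriched. RAP1B stood 1.74-fold higher in microglia, at 0.80 on the log2 scale (SE 0.13, adjusted p = 3.47e-06), and ARPC5 was 1.89-fold higher (0.92, SE 0.15, adjusted p = 3.17e-06). Both missed the fold of 4 that the study's threshold asks for, and both were higher in each microglia sample than in each tissue sample, as were 31.1% of all genes. An adjusted p under 0.01 was reached by 32.2% of genes in that direction and 37% in the other, and with the fold of 4 by 11.7% and 22.1%. SELENOP did not pass the test (-0.13 on the log2 scale, 95% interval -0.41 to 0.15, SE 0.14, adjusted p = 0.411). Within the 4 pigs with both samples, SELENOP was below tissue in 1, pig 12829, at 130 against 230 CPM, and above it in the other 3. RAP1B and ARPC5 were above tissue in 4 of 4 pigs, as were 38.4% of all genes, by mean log2 differences of 0.97 ± 0.23 and 1.06 ± 0.41 (SD, n = 4). Without the tissue sample of pig 12829 the fitted SELENOP difference was 0.08, and with the pig as a block it was -0.02; it passed the threshold under none of its alternatives, whose adjusted p ran from 0.022 to 0.897. Tissue holds neurons, astrocytes and oligodendrocytes, whose markers summed to at least 2963, 4538 and 11875 CPM there.

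Between the groups with no sorted microglia the genes moved furthest apart. In alveolar macrophages against hippocampal tissue, SELENOP was 6.16-fold lower (log2 fold change -2.62, SE 0.20, adjusted p = 2.48e-12), a direction called for 28.7% of genes. RAP1B was 3.06-fold higher (1.61, SE 0.16, adjusted p = 4.34e-10) and ARPC5 was 3.65-fold higher (1.87, SE 0.18, adjusted p = 3.3e-10), a direction called for 28.9%. The groups did not overlap for any of the 3 genes, macrophages lying below tissue for SELENOP, as for 40.6% of all genes, and above it for RAP1B and ARPC5, as for 37.9%, and these values share samples with the comparisons above.

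Among other genes of selenium use, the regional pattern of SELENOP had no counterpart that passed the test. Of 33 listed selenoprotein and selenium genes, 29 were matched and 20 tested. Without SELENOP, 0 of 19 were called between cerebellum and frontal cortex in either direction, and their median log2 fold change was 0.12 beside -0.03 over all genes. At an unadjusted p under 0.05 in edgeR, SELENON was the 1 higher gene, at 0.40 (SE 0.17, adjusted p = 0.175), and SELENOI the 1 lower gene, at -0.40 (SE 0.12, adjusted p = 0.0427), both named here after their values were seen. That threshold was reached by 8.08% of all genes in the higher and 10.7% in the lower direction. DESeq2 and limma-voom called 0 in either direction, beside 1.74% higher and 2.66% lower of all genes by DESeq2 and 1.35% and 0.705% by limma-voom. The cerebellar against frontal cortex values were -0.11 (SE 0.12) for GPX4, the peroxidase that repairs lipid peroxides, -0.09 (SE 0.14) for TXNRD1, cytosolic thioredoxin reductase, and 0.38 (SE 0.25) for the uptake receptor LRP8. Against macrophages, 4 of the 20 were higher and 1 lower at an adjusted p under 0.01, beside 23.5% and 24% of all genes. SELENOP is included here and was among those 4. TXNRD1 was the lower one, at -0.86 (SE 0.16, adjusted p = 3.27e-05). Against tissue, 5 were higher and 5 lower in hippocampal microglia, beside 32.2% and 37% of all genes. With the fold of 4, the genes called were DIO2 and SECISBP2L. DIO2, the deiodinase that activates thyroid hormone, was at -6.56 (SE 1.05) and SECISBP2L, a SECIS-binding protein gene, at -2.22 (SE 0.16). GPX4 was lower as well (-1.23, SE 0.14, adjusted p = 7.13e-09). In macrophages against tissue, 5 were higher, led by SELENOH (1.12, SE 0.19) and TXNRD2 (0.93, SE 0.24). In that comparison 7 were lower, SELENOP among them, led by DIO2 (-6.73, SE 1.63) and SECISBP2L (-2.70, SE 0.23). Over all genes, 28.9% were called higher and 28.7% lower in that comparison.

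The paralogue of RAP1B did not share its regional difference at a size the test could call. RAP1A had 133 ± 16.1, 147 ± 39.2 and 146 ± 20.3 CPM (SD, n = 8 each) in cerebellar, frontal cortex and hippocampal microglia, and its cerebellar against frontal cortex value was -0.15 (SE 0.13, adjusted p = 0.576). The 2 genes were not tested against each other. RAP1A was higher in hippocampal microglia than in tissue (1.49, SE 0.17, adjusted p = 6.67e-09), and against macrophages it gave -0.37 (SE 0.15, adjusted p = 0.0371). Of the 33 genes on the RAP and integrin list, RAP1B excluded, 1 of 32 was called higher in cerebellar than frontal cortex microglia and 0 lower, with a median log2 fold change of -0.08. At an unadjusted p under 0.05 in edgeR 5 were higher and 5 lower, beside 8.08% and 10.7% of all genes. DESeq2 called ITGAL higher and RAP2C and SIPA1L1 lower, beside 1.74% and 2.66% of all genes, and limma-voom called ITGAL alone. The gene called by edgeR was ITGAL, the alpha chain of the integrin LFA-1, at 347 ± 52.1 against 221 ± 30.98 CPM (SD, n = 8 each; log2 fold change 0.65, SE 0.10, adjusted p = 0.000265).

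Against macrophages, 12 of the 33 genes of the same list were higher and 9 lower at an adjusted p under 0.01. RAP1B is included here, among those 9 and among the higher genes of both comparisons with tissue below. The shares over all genes were 23.5% and 24%. Of the genes called with the fold of 3, the 2 with the largest change in each direction follow. RAPGEF4, a cyclic AMP-driven exchange factor, at 7.08 (SE 0.46) and the RAP GTPase-activating SIPA1L2 at 5.71 (SE 0.60) were higher in microglia. RASGRP2 and RASGRP3, also exchange factors, were lower at -5.71 (SE 0.88) and -4.04 (SE 0.45). Against tissue, 17 were higher and 13 lower, beside 32.2% and 37% of all genes. The higher ones were led by the leukocyte integrin chains ITGB2 at 5.33 (SE 0.19) and ITGAM at 4.87 (SE 0.15). ITGAM encodes the CD11b used in the sort. The lower ones were led by RAP1GAP (-7.42, SE 1.59) and RAPGEF3 (-5.93, SE 1.82). In macrophages against tissue, 16 were higher, led by FERMT3 (4.90, SE 0.23) and ITGB2 (4.88, SE 0.19), and 11 lower, led by RAP1GAP (-8.91, SE 2.65) and RAPGEF4 (-8.36, SE 0.50). Over all genes, 28.9% were called higher and 28.7% lower there.

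The subunits of the Arp2/3 complex did not move as 1 block between regions. The fitted cerebellar against frontal cortex value of every measured subunit was below 0. ARPC5 was chosen by this difference and was not tested on it. None of the other measured subunits passed an adjusted p under 0.01 by edgeR, while DESeq2 called ARPC1A and ARPC5L lower. The nearest were the paralogue ARPC5L at -0.48 (SE 0.13, adjusted p = 0.0358), ARPC1A at -0.34 (SE 0.10, adjusted p = 0.0337) and ACTR3 at -0.36 (SE 0.11, adjusted p = 0.0612). ARPC1B at -0.04 (SE 0.10), ACTR2 at -0.08 (SE 0.17), ARPC2 at -0.13 (SE 0.09) and ARPC3 at -0.18 (SE 0.10) were closer to 0. Within pigs, ARPC5, ARPC1A and ACTR3 were lower in the cerebellum in 6 of 6 pigs, as were 4.11% of all genes. ARPC5L and ARPC3 were lower in 4, ARPC1B in 3 and ARPC2 and ACTR2 in 2. The mean difference within pigs was above 0 for ACTR2 (0.15 ± 0.52) and ARPC1B (0.03 ± 0.18, SD, n = 6) and below 0 for the other subunits. ARPC4 was not matched to an identifier. ARPC5L, CAPZA1 and RHOA were named by the study from these same samples, so their place on this list is not independent of the regional pattern.

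The subunits differed from each other in direction against tissue, while against macrophages those that passed the test were all lower in microglia. ARPC5L, at 19.96 ± 2.57, 27.7 ± 6.63 and 26.3 ± 3.53 CPM in cerebellar, frontal cortex and hippocampal microglia (SD, n = 8 each), was lower than in macrophages by the same amount as ARPC5 (-1.10, SE 0.15, adjusted p = 2.67e-07). It did not pass the test between hippocampal microglia and tissue (0.02, SE 0.16, adjusted p = 0.901), where ARPC5 did. Of the pair of ARPC1 forms, ARPC1B was lower in microglia than in macrophages (-1.62, SE 0.10, adjusted p = 5.66e-14) and higher than in tissue (3.32, SE 0.14, adjusted p = 4.64e-18). ARPC1A gave 0.22 (SE 0.12, adjusted p = 0.105) against macrophages and was lower in microglia than in tissue (-0.93, SE 0.11, adjusted p = 3.18e-08). ACTR3 and ARPC2 followed ARPC5, with -1.19 (SE 0.13) and -0.43 (SE 0.11) against macrophages and 0.56 (SE 0.14) and 1.22 (SE 0.12) against tissue, each at an adjusted p under 0.01.

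**Figure D4:**
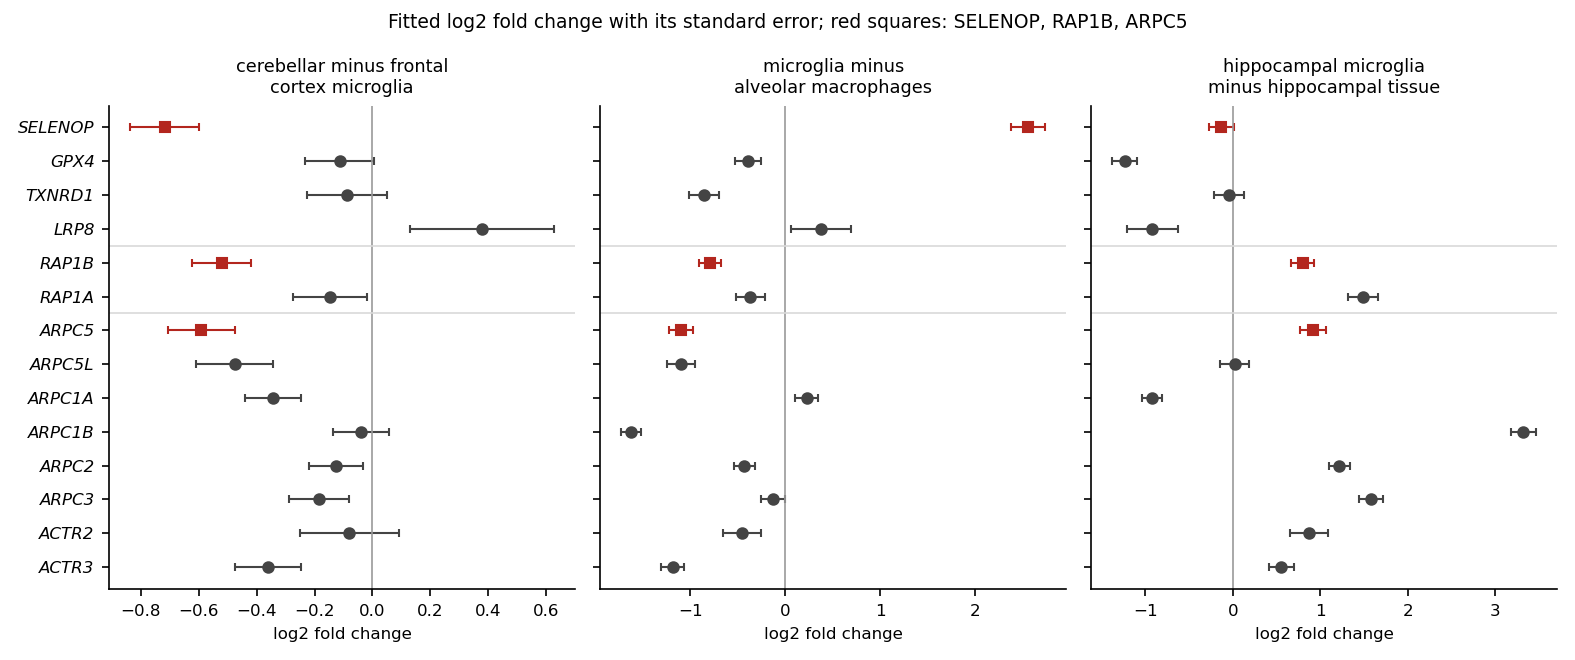
Fitted log2 fold change (horizontal axis) with its standard error for SELENOP and other selenium genes, RAP1B and RAP1A, and ARPC5 with the other Arp2/3 subunits, in 3 comparisons; the scales of the panels differ. SELENOP stands alone to the right against macrophages (2.55), and the ARPC1 forms part against tissue (3.32 and -0.93); the cerebellar values of SELENOP, RAP1B and ARPC5 are those that chose them.

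In the whole list of Arp2/3 and actin regulators, 47 of 51 genes were tested and, ARPC5 excluded, 1 of 46 was called lower in cerebellar than frontal cortex microglia and 0 higher, with a median log2 fold change of -0.16 beside -0.03 over all genes. At an unadjusted p under 0.05 in edgeR 15 were lower and 0 higher, beside 10.7% and 8.08% of all genes. DESeq2 called CYFIP1, PFN1, ARPC1A and ARPC5L lower and 0 higher, beside 2.66% and 1.74% of all genes, and limma-voom called CYFIP1 alone. The gene called by edgeR was CYFIP1, a subunit of the WAVE complex that switches on Arp2/3, at 417 ± 66.2 against 620 ± 60.8 CPM (SD, n = 8 each; log2 fold change -0.57, SE 0.09, adjusted p = 0.000286). CYFIP1 was also the gene of the list that stood highest in microglia against macrophages (3.85, SE 0.15), ahead of ABI2 (3.36, SE 0.53), another WAVE subunit. RAC2, the blood-cell RAC GTPase, and CYFIP2 stood lowest, at -3.94 (SE 0.17) and -2.43 (SE 0.22). At an adjusted p under 0.01, 13 genes were higher and 19 lower in that comparison, beside 23.5% and 24% of all genes. ARPC5 is included here, among those 19 and among the higher genes of both comparisons with tissue below. Against tissue, 28 were higher and 11 lower, beside 32.2% and 37% of all genes. At the higher end were WAS (5.17, SE 0.25), the activator of Arp2/3 in blood cells, and NCKAP1L (4.93, SE 0.19), a WAVE complex subunit of blood cells. At the lower end were the WAVE complex genes WASF3 (-7.39, SE 1.23) and NCKAP1 (-6.47, SE 1.02). In macrophages against tissue, 27 were higher, led by RAC2 (8.17, SE 0.36) and CORO1A (5.28, SE 0.24), and 11 lower, led by WASF3 (-7.85, SE 1.96) and ABI2 (-7.04, SE 0.68). The shares over all genes were 28.9% higher and 28.7% lower.

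Between cerebellum and hippocampus, and between frontal cortex and hippocampus, edgeR called 0 of 19, 0 of 32 and 0 of 46 other genes of the 3 lists in either direction at an adjusted p under 0.01. Over all genes, 0.438% were called higher and 0.163% lower in the cerebellum than in the hippocampus, and 0.189% higher and 0.129% lower in the frontal cortex than in the hippocampus. In the cerebellum, an unadjusted p under 0.05 was reached by 0 selenium genes, by 2 higher and 4 lower RAP and integrin genes and by 1 higher and 9 lower actin regulators, beside 11.4% higher and 8.4% lower of all genes. In the frontal cortex it was reached by 1 higher and 1 lower selenium gene, 6 higher and 3 lower RAP and integrin genes and 4 higher and 1 lower actin regulators, beside 13.8% higher and 6.03% lower of all genes. DESeq2 called CRK, RAP2C, CYFIP1 and CAPZA1 lower in the cerebellum, where it called 2.88% of all genes higher and 1.01% lower. In the frontal cortex it called RASGRP3 and PFN1 higher and ITGAL lower, beside 2.74% higher and 0.628% lower of all genes. Limma-voom called SIPA1L2 lower in the frontal cortex and no other listed gene, beside 0.275% higher and 0.112% lower of all genes in the cerebellum and 0.086% and 0.266% in the frontal cortex.

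Within a region, where the regional difference does not enter, the levels of the 3 genes were compared across the 8 samples, each from another pig. The highest of the 9 correlations was that of RAP1B and ARPC5 in the cerebellum (Pearson's r = 0.80, exact permutation p = 0.0367, adjusted p = 0.25 over 9; Spearman's rho = 0.55, p = 0.171, adjusted p = 0.389). It rested on few samples, since r was 0.16 without the 2 samples farthest from the median of RAP1B. In the frontal cortex, SELENOP gave r = 0.70 with RAP1B and r = 0.68 with ARPC5, with exact permutation p = 0.0569 and p = 0.0833, both adjusted to 0.25, and rho = 0.50 and rho = 0.52 (both adjusted p = 0.389). Without the 2 samples farthest from the median of SELENOP these were r = 0.60 and r = 0.49. In the hippocampus SELENOP and ARPC5 gave r = 0.07 (exact permutation p = 0.88, adjusted p = 0.88) and rho = -0.12 (p = 0.793, adjusted p = 0.793). The other 5 pairs had r between 0.30 and 0.58, and no pair passed an adjusted p under 0.05, by either coefficient.

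**Figure D5:**
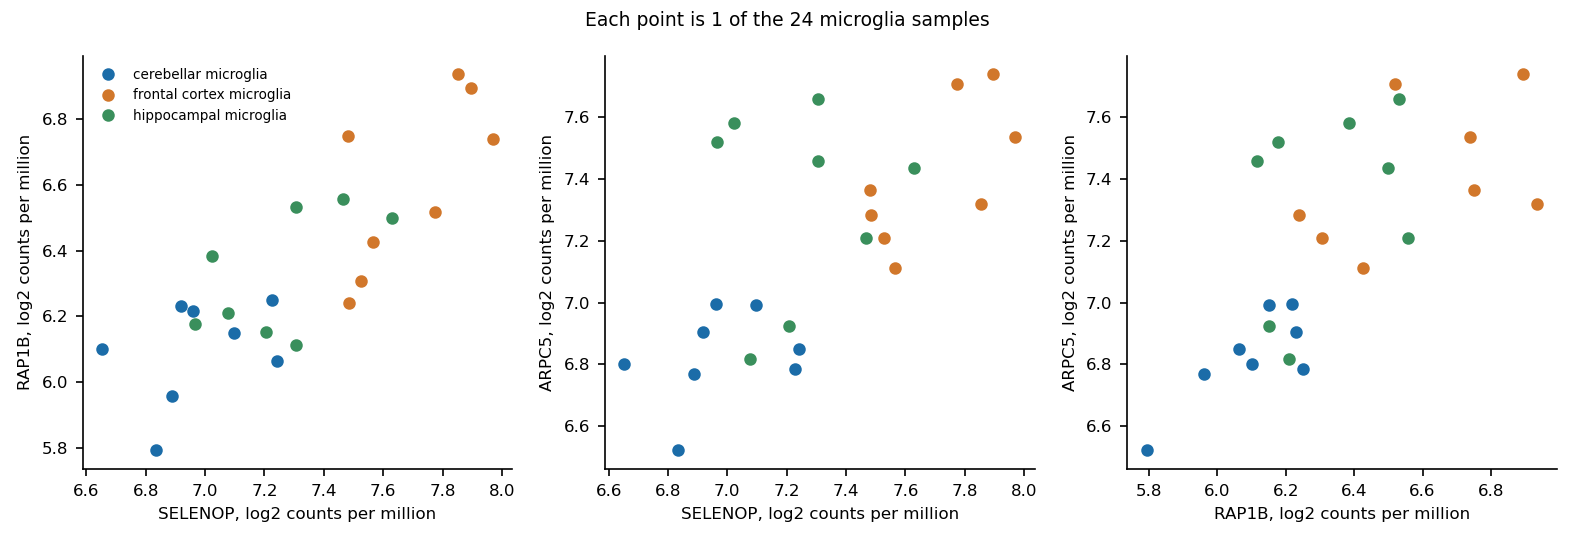
Levels of 2 of the genes against each other in log2 CPM, 1 point for each of the 24 microglia samples, coloured by region. Cerebellar and frontal cortex samples form separate clouds. Within a region r ran from 0.07 to 0.80 over 8 samples, and no pair passed an adjusted p under 0.05 by exact permutation.

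The genes whose level followed each gene most closely over the 24 microglia samples, after each region's mean was taken away, were not the same for the 3. These are descriptions; the samples of a pig share an animal and all share the scaling. For SELENOP they were SNX14 (r = 0.79), a sorting nexin, BCAP29 (r = 0.78), an endoplasmic reticulum protein, ARRDC3 (r = 0.76), an arrestin-like adaptor, the ribosomal gene RPL36A (r = 0.76) and CDC23 (r = 0.76), a subunit of the anaphase-promoting complex. For RAP1B they were CLCC1 (r = 0.78), NPC2 (r = 0.77), a lysosomal cholesterol carrier, SLC25A3 (r = 0.76), the mitochondrial phosphate carrier, and the small GTPases RAB10 (r = 0.76) and CDC42 (r = 0.75). For ARPC5 they were the ribosomal genes RPS6 (r = 0.84) and RPS20 (r = 0.80), the histone gene H3-3A (r = 0.82), FCER1G (r = 0.80), the shared Fc receptor chain, and the myosin light chain gene MYL6 (r = 0.79). Of each gene's 5, 0 remained for SELENOP and 1 each for RAP1B and ARPC5 when the region means were left in. Among each other the 3 genes ranked far lower, from 228 for SELENOP as a partner of RAP1B to 2396 for ARPC5 as a partner of SELENOP, out of 11632 genes, with r of 0.56 for SELENOP and RAP1B, 0.47 for RAP1B and ARPC5 and 0.30 for SELENOP and ARPC5. With the region means left in, those were 0.82, 0.71 and 0.65, where the shared regional difference enters.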

How the data were processed

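Per the labels and the study's methods, total RNA was made into stranded libraries, reads of 50 bases from both ends were trimmed, aligned to Sscrofa11.1 with HISAT2 and counted on Ensembl genes with StringTie, and the authors deposited raw counts of 31907 genes in 31 samples; aligner settings, and whether reads with several matches were kept, are not given in the sources used here. Counts on genes with near copies, such as RAP1B, can depend on that. Samples were grouped by their titles, whose number names the pig. Symbols came from a reference table for 15029 genes and from the study's tables for 383, SELENOP among them.

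A gene was kept if at least 1 group had it over 10 CPM in each of its samples (11633 genes). They were fitted by edgeR 4.0.16 (R 4.3.3) with TMM scaling and its robust quasi-likelihood test, all 5 groups in 1 model, Benjamini-Hochberg over all genes; calls needed an adjusted p under 0.01 and, against macrophages, a fold over 3 or, between hippocampal microglia and tissue, over 4. SE is the log2 fold change over the root of F, and a 95% interval is a normal one; log2 CPM used a prior count of 2. Correlations used two-sided exact permutation (SciPy 1.17.1) over 9 pairs. The fit was tested on simulated data. No pair of replicates agreed within sampling noise (lowest chi-square per degree of freedom 29.7). The pig number marks the same animal, so pig as a block was tried (edgeR, and limma 3.58.1 with an estimated correlation of 0.21); deviations from group means correlated by 0.08 on average over 25 same-pig pairs (-0.37 to 0.43), against -0.00 for other pairs. DESeq2 1.42.0, limma-voom, other scalings and filters, the compared groups alone and each sample left out were also tried. Copies were sought with blastn 2.17.0 and sequences taken from RefSeq on Sscrofa11.1.

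The genes, lists and rules were chosen with earlier results of these data known. Named were SELENOP, RAP1B and ARPC5, RAP1A and ARPC5L, the Arp2/3 subunits, GPX4, TXNRD1 and LRP8, up to 2 called genes with the largest change for each list, comparison and direction, and the 5 genes most correlated with each gene. GPX1, SELENOK, SELENOT, SEPHS2, ACTR3B, ARPC4, WASF1 and WASHC2C were not matched.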

Additional observations from a re-analysis of the deposited data

How the results depend on the processing

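Among the refitted fold changes of SELENOP, RAP1B and ARPC5, 457 kept their direction and their side of the threshold, or, between regions, moved by less than the spread between replicates. The 2 exceptions were both SELENOP in hippocampal microglia against tissue, which never passed the test: 0.0710 with library sizes alone in place of TMM factors, and 0.0777 without the tissue sample of pig 12829 (range without 1 sample, -0.21 to 0.0777). Library sizes alone moved the median of all genes in that comparison by 0.22, and RLE factors moved it by -0.21; RLE factors gave SELENOP -0.34 and kept RAP1B at 0.58 and ARPC5 at 0.71. With the pig as a replicate block in edgeR, against macrophages the log2 fold changes were 2.81 for SELENOP, -0.52 for RAP1B and -0.77 for ARPC5, and beyond the values given with the results the pairing changed no call. Of the repeated correlations 17 kept their sign and 1 turned, SELENOP with ARPC5 in the hippocampus, to -0.463 with library sizes alone. List counts stayed within 1.5 times in 891 refits, rose in 25 and fell in 2. Leaving out pigs by their oligodendrocyte or granule cell markers was chosen after seeing the data. The 3 macrophage samples, of which only 2 pigs also gave microglia, limit that comparison, and how reads shared by RAP1B and its copies were counted is not given in the sources used here.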
